A study of Mus musculus with 4 samples.

Results

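The Dxz4 macrosatellite lies within the noncoding transcript 4933407K13Rik on mouse chromosome X, and its surroundings were described here in allele-resolved Hi-C maps of female tail tip fibroblasts (TTF). In the build mm10 the transcript spans chrX:75725458-75764699, which is 39242 bases. At 100 kb resolution it falls wholly within the bin from 75700001 to 75800000. At 250 kb resolution 24543 of its bases lie in the bin from 75500001 to 75750000, taken here as the Dxz4 bin, and 14699 lie in the next bin to the right. The Dxz4 bin and the bins with data up to 5 Mb on each side numbered 41 of 588 at 250 kb and 99 of 1461 at 100 kb. The position alone set which bins these were, with no cut on a measured value. The locus itself was chosen with earlier results of these data known. The gene content of the flanks was unequal. The left flank, towards the centromere, held 94 protein-coding genes by the 250 kb bins, the right flank 22 and the Dxz4 bin itself 2, Vbp1 (a prefoldin subunit) and Rab39b (a small GTPase of vesicle transport).

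The cells came from mus/cas hybrid mice, whose parental X chromosomes, mus and cas, can be told apart by sequence. There were 2 wild-type (WT) samples and 2 Sirt7-/- (KO) samples, the latter without the nuclear NAD-dependent deacylase SIRT7. All samples were female, and the labels name neither the age of the animals nor which of the parental copies was inactive. The deposited values are 8 matrices of this chromosome, covering each combination of genotype, allele and bin size, in which the authors had combined the 2 replicates of a genotype. A value is a correlation coefficient that compares how 2 bins contact the rest of the chromosome: it is high where both bins contact the same places along the chromosome, and negative where one is rich in contacts that the other lacks. No spread between replicates could be had, so every comparison of WT with KO below is a difference between 1 combined map and another, without a replicate check. The read depth is unknown. Dxz4 was among the rows with a strong signal on the mus copy. The correlation of its 100 kb bin with its adjacent bins averaged 0.197 in WT and 0.206 in KO, ranking 3 and 1 of 1461 bins, whereas on the cas copy it was 0.0481 and 0.0615, at ranks 1022 and 829.

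Dxz4 is a large array of tandem repeats that binds the architectural protein CTCF on the inactive X chromosome and carries repressive chromatin on the active one. The inactive X folds into a pair of superdomains of long-range contact, and Dxz4 is the hinge between them. Firre, a repeat-rich lncRNA locus, and the X-inactivation centre, which holds Xist, also bind CTCF and form very long contacts with Dxz4 on the inactive X. The host transcript runs on the minus strand, so its start is at the right end. Its RefSeq promoter, GRCm38.p6 chrX:75764650-75764949 minus strand, is shown because it marks the edge of the transcript that faces the flank with which the locus shared most of its contact profile on the mus copy. Capitals mark the 50 bases after the start.

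4933407K13Rik promoter: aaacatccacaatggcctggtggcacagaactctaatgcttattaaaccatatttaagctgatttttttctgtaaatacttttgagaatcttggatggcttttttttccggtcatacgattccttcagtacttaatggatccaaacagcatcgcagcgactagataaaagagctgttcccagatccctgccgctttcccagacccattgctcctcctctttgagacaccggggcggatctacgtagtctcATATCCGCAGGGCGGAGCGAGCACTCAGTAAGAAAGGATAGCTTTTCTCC

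The GC content of this window was 45.3%, below the median of 53.0% over 32544 RefSeq mouse promoters of the same length. It held 11 CpG dinucleotides against a median of 7, and 41.7% of promoters held as many or more. The HindIII site AAGCTT, at which the Hi-C chromatin was cut, was not found in it (its reverse complement is the same) and is present in 7.49% of promoters. The window covers only the start of the transcript, and the sequence of the repeat array was not analysed here.

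On the mus copy the Dxz4 row, that is the correlation of the Dxz4 bin with every other bin, was lopsided. It was high towards the right, with the bins of Pls3 and the claudin-like Cldn34 genes, and much lower towards the left, with the bins of F8, Dkc1 and the gene-dense region beyond. The same direction was seen in WT and in KO and at both bin sizes. On the cas copy the row did not lean to the right. The block of correlations around the locus shows both flanks at once.

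**Figure D1:**
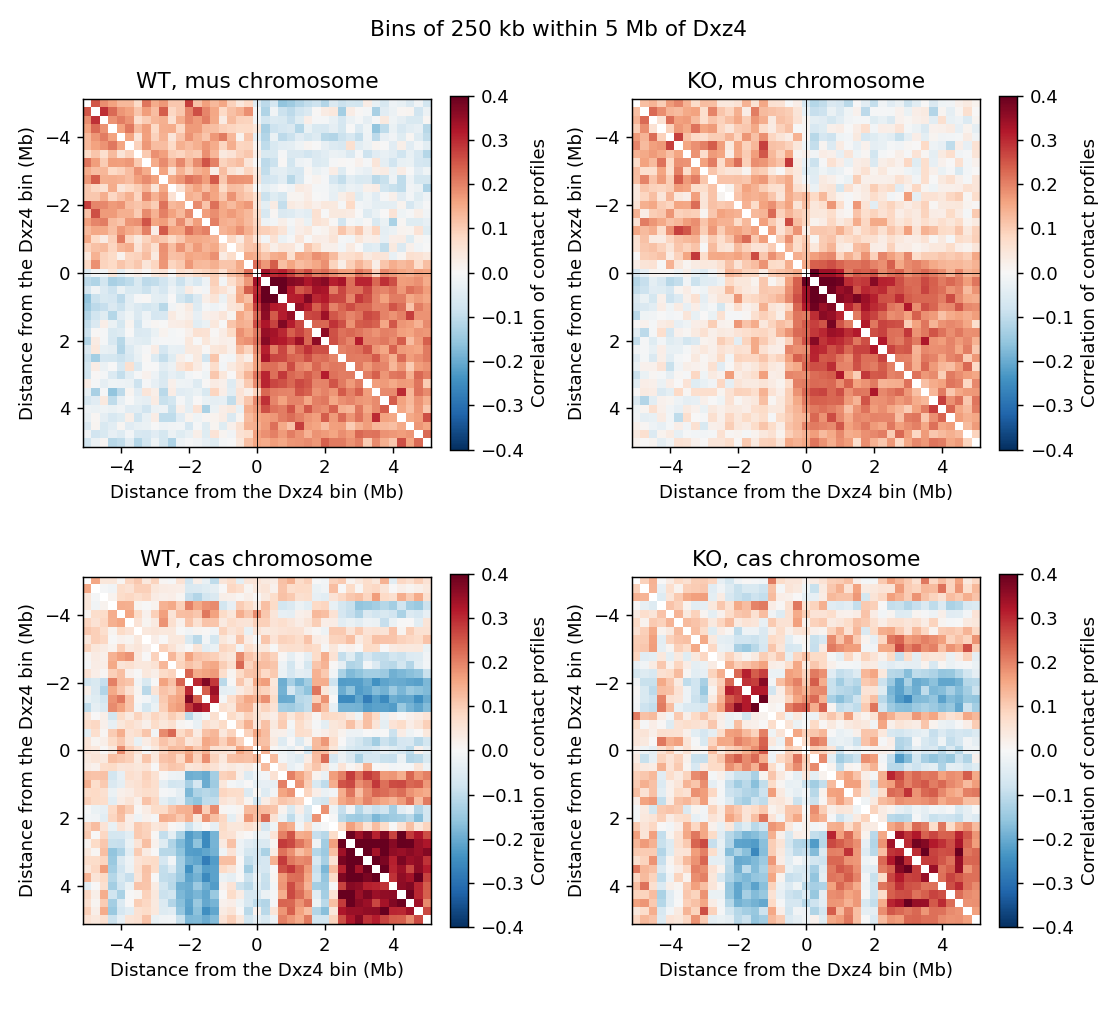
Correlation of every pair of 250 kb bins within 5 Mb of the Dxz4 bin, for WT and KO on the mus and the cas copy; both axes give the distance from the Dxz4 bin in Mb (negative is left), and colour gives the correlation coefficient from -0.4 (blue) to 0.4 (red), with values beyond drawn in the end colours. On mus the right flank forms a square of high values (mean of pairs 1 to 5 Mb apart 0.201 in WT and 0.199 in KO), and the rectangle of pairs across Dxz4 is paler or blue.

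Next to the locus, the bin of Pls3, which codes for the actin-bundling protein plastin 3, had a correlation with the Dxz4 bin of 0.336 in WT and 0.409 in KO on the mus copy, and of 0.140 and 0.104 on the cas copy. This neighbour also holds the rest of the transcript. The next bin to the right, which holds the noncoding genes Gm14707 and Gm14717, had 0.299 and 0.339 on mus but 0.00491 and 0.0933 on cas. The bin of Cldn34b3 and Cldn34b4, members of a claudin-like family, had 0.310 and 0.340 on mus and -0.0160 and 0.0472 on cas. All 3 bins were higher on mus than on cas in both genotypes.

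To the left, the adjacent bin holds F8 (coagulation factor VIII), Fundc2, Cmc4, Mtcp1 and Brcc3, a deubiquitinase of the DNA damage response. Its correlation with the Dxz4 bin on mus was 0.224 in WT, with 0.151 in KO, and on cas 0.123 and 0.0735. The bin beyond it holds Gab3, Dkc1 (dyskerin, of the H/ACA ribonucleoproteins), Mpp1 and Smim9, and had 0.142 and 0.130 on mus and 0.158 and 0.0939 on cas. On mus both bins were below their mirror images on the right, in WT and in KO. On cas the F8 bin was also below the Pls3 bin, but closer to it than on mus. The Dkc1 bin on cas was far above the bin of Gm14707 and Gm14717 in WT and about level with it in KO.

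The lean continued along the flanks. Among the bins 3 to 5 Mb away on mus, all 8 on the right were positive in both genotypes, with means of 0.166 in WT and 0.187 in KO, and 4 of the 8 on the left were positive, with means of 0.00912 and -0.0112. Positive values are usual at this distance. All mus pairs of the chromosome averaged 0.112 at 3 to 4 Mb and 0.104 at 4 to 5 Mb in WT, and 0.0941 and 0.0855 in KO. The right side thus stood above that level and the left side below it. Nearer the locus, the bin of Tbl1x, a subunit of nuclear receptor corepressor complexes, lies on the right and had 0.223 (WT) and 0.254 (KO) on mus. The bin of Irak1 and Flna (filamin A) lies on the left, somewhat closer to Dxz4, and had 0.0888 and 0.0885. On cas the order was opposite at 3 to 5 Mb. The left bins averaged 0.0579 in WT and 0.0256 in KO, and the right bins averaged -0.0554 and -0.0683, with 1 of 8 and 0 of 8 positive. Both sides were below all cas pairs of the chromosome, which averaged 0.0958 at 3 to 4 Mb and 0.0827 at 4 to 5 Mb in WT, and 0.0867 and 0.0755 in KO.

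At greater distance, out to 50 Mb, most bins of the row on mus had 1 sign on each side of the locus. At 100 kb, among the bins 5 to 50 Mb to the left, 325 of 339 were negative in WT and 315 in KO. Among those to the right, 355 of 422 were positive in WT and 343 in KO. On cas the right-hand bins were divided almost evenly in WT, with 218 of 422 positive, and 135 were positive in KO, and on the left 168 and 111 of 339 were positive. The lean on mus thus reached far beyond the flanks, and on cas the 2 sides did not part.

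**Figure D2:**
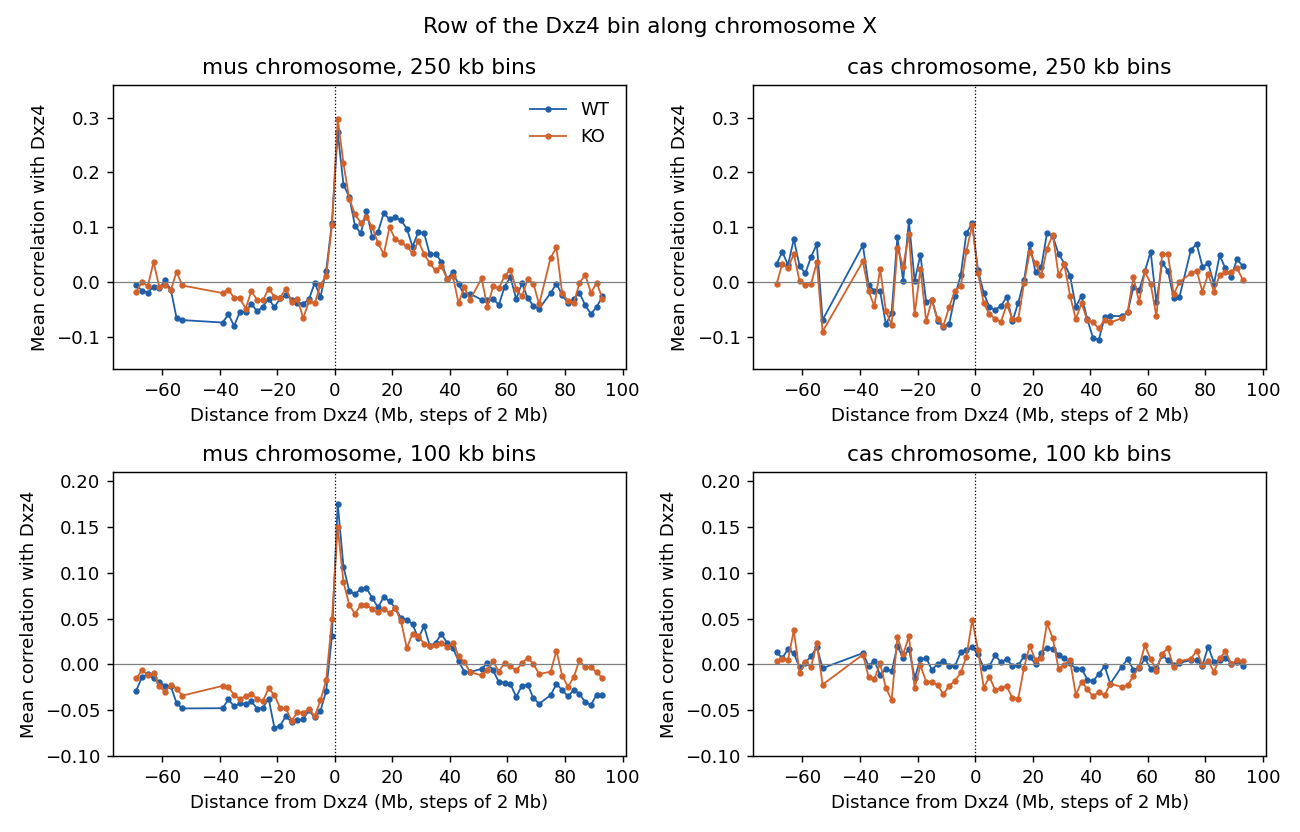
Mean correlation of the Dxz4 bin with the other bins in steps of 2 Mb along the chromosome (x axis, distance from the Dxz4 bin in Mb, negative is left), for WT and KO on each allele at 250 kb and 100 kb bins; straight lines bridge stretches without data. On mus the curves lie mainly below 0 to the left and above 0 to the right out to about 40 Mb, and on cas they cross 0 repeatedly on both sides.

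The size of the mus row fell with distance on the right. In WT at 250 kb it averaged 0.315 within 1 Mb, 0.107 at 5 to 10 Mb, 0.109 from 10 to 20 Mb and 0.0503 from there to 50 Mb. In KO the same classes averaged 0.362, 0.121, 0.0881 and 0.0307. Beyond 50 Mb the right side was below 0, at -0.0276 in WT and -0.00982 in KO. On the left the lowest class was 20 to 50 Mb in WT, at -0.0530, where KO had -0.0264. KO was therefore higher than WT on the right up to 10 Mb and closer to 0 than WT beyond 10 Mb on the right and beyond 20 Mb on the left. At 100 kb KO was below WT on the right in each class up to 50 Mb, at 0.177 against 0.214 within 1 Mb and 0.0597 against 0.0821 at 5 to 10 Mb.

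The lean was put into 1 number, the row side contrast, as the mean of the left bins minus that of the right bins at equal distances. For bins 1 to 5 Mb away at 250 kb on mus it was -0.157 in WT (left 0.0307, right 0.187) and -0.183 in KO (left 0.0261, right 0.209). On cas it was 0.103 in WT and 0.112 in KO. The 100 kb bins gave -0.132 and -0.103 for mus, WT and KO in turn, and 0.0193 and 0.0318 for cas. The sign differed between the alleles in every one of these 4 pairs of maps. The cas values were not extreme among all bins. Counted from the lowest, they ranked 483 (WT) and 497 (KO) of 573 at 250 kb, where the highest bins had 0.339 and 0.318. At 100 kb they ranked 1097 and 1215 of 1436.

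Against all other bins of the chromosome, the lean of Dxz4 on mus was extreme. At 100 kb its contrast was the lowest of 1436 bins in WT and in KO, and the median bin stood at 0.000818 and 0.00140. At 250 kb it ranked 6 from the lowest of 573 bins in WT and 3 in KO, and the lowest value in both was that of the next bin to the right, with -0.324 and -0.266. For bins 5 to 50 Mb away at 100 kb, Dxz4 was again the lowest of 1021 bins in both genotypes, with -0.104 in WT and -0.0826 in KO. The corresponding values on cas at 100 kb were -0.00260 and -0.00272, at ranks 440 and 409. At 250 kb over 5 to 50 Mb, Dxz4 on mus ranked 13 (WT) and 6 (KO) from the lowest of 422 bins. The lowest there was again the next bin to the right, in both genotypes. In KO at 100 kb the bin at 23.7 Mb, with -0.1026, came close to the -0.1030 of Dxz4, so the rank there rested on a small margin.

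The sign of the contrast marked where the lean began. On mus at 100 kb an unbroken run of bins that leaned right reached from 75.4 to 78.8 Mb in WT and from 75.0 to 77.8 Mb in KO (bin starts). At 250 kb the run reached from 75.25 to 79.0 Mb in WT and from 75.0 to 78.0 Mb in KO. The Dxz4 bin thus lay near the left end of this run, and the bin of Cmc4, Mtcp1 and Brcc3 was its left end at 100 kb in WT. On cas the sign at Dxz4 was opposite and the run around it at 100 kb was shorter, from 75.3 to 76.1 Mb in WT and from 74.9 to 76.2 Mb in KO.

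**Figure D3:**
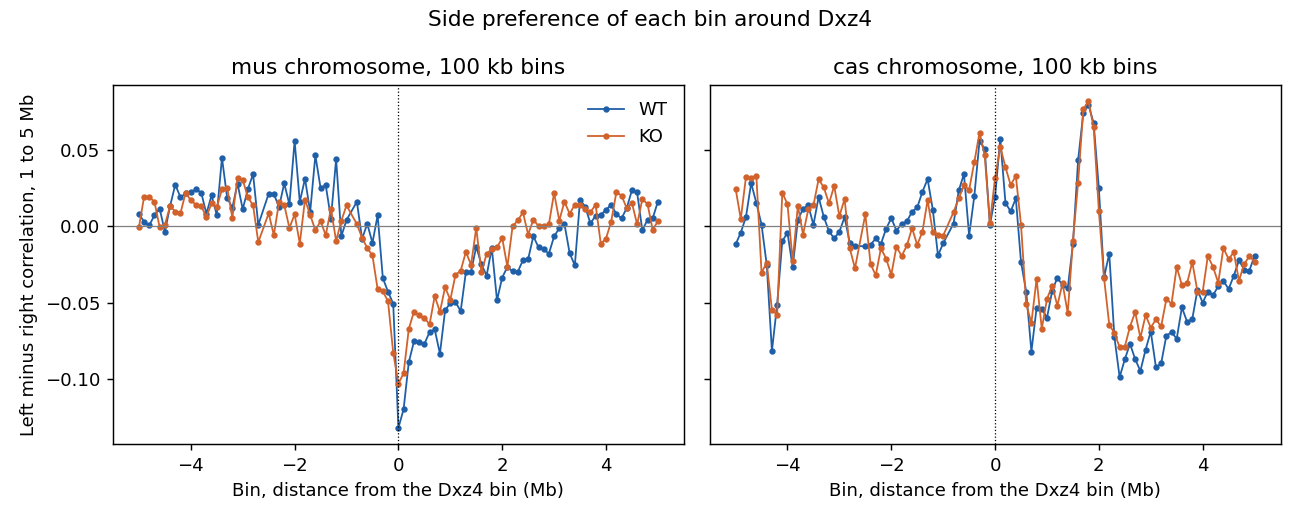
Row side contrast (mean of the left bins minus mean of the right bins, 1 to 5 Mb away) of each 100 kb bin within 5 Mb of Dxz4, for WT and KO on mus and cas; the x axis is the distance from the Dxz4 bin in Mb and the y axis a difference of correlation coefficients. On mus the lowest point is the Dxz4 bin itself, at -0.132 in WT and -0.103 in KO, and on cas the Dxz4 bin is at 0.0193 and 0.0318.

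Whether KO leaned more or less than WT depended on the bin. For the 250 kb Dxz4 bin, KO minus WT was -0.0263 on mus, a stronger lean to the right. For the 100 kb bin it was 0.0290, and for the next 250 kb bin to the right 0.0585, both a weaker lean. For the next 250 kb bin to the left, which hardly leaned in WT (-0.00424), it was -0.119. The direction of the genotype difference in the near row is therefore not settled by these maps, whereas the lean itself had 1 direction in all 4 mus maps. At 5 to 50 Mb the lean was smaller in KO than in WT at both bin sizes on mus, with -0.130 in WT and -0.0978 in KO at 250 kb beside the 100 kb values given above.

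On mus the shape of the Dxz4 row was kept between the genotypes better than that of most other rows. At 100 kb on mus the row correlated between WT and KO with r = 0.676 over 1423 bins at least 2 Mb away, the highest of 1461 rows. The median row had 0.144, and 6 rows exceeded 0.5. The right-hand neighbour was next with 0.646. At 250 kb r was 0.659, at rank 49 of 588 against a median of 0.491, and the right-hand neighbour, with 0.826, was the highest of all rows. On cas the row of Dxz4 was among the less reproducible, with 0.186 at 100 kb (rank 1179, median 0.494) and 0.710 at 250 kb (rank 421, median 0.848).

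The spread of values in a row moves with such correlations, and at 100 kb on mus it was large here. On mus the 100 kb Dxz4 row had an SD of 0.0514 in WT and 0.0434 in KO, the highest of 1461 rows in both, against medians of 0.0294 and 0.0281. On cas the SD was 0.0277 and 0.0355, at ranks 1314 and 803. At 250 kb the SD on mus was 0.0706 and 0.0635, at ranks 155 and 129 of 588, and on cas 0.0710 and 0.0690, at rank 450 in both. Its part in the order of the rows was not tested. Between the alleles the row had almost nothing in common, with r of 0.0536 in WT and 0.0433 in KO at 250 kb and of 0.00194 and -0.00134 at 100 kb. Low values were usual for this comparison. The median row had 0.104 and 0.111 at 250 kb, where Dxz4 ranked 394 and 429 of 588. At 100 kb the median was 0.0334 and 0.0242, with Dxz4 at ranks 1034 and 1084 of 1461. These correlations describe bins of the same maps, which share their libraries and are not replicates.

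Firre stood on the negative side of the row on mus. It lies to the left, and its 100 kb bin, which starts at 50.5 Mb, had -0.107 in WT and -0.0937 in KO with the Dxz4 bin. Both were the lowest of 1137 bin pairs at that distance. On cas the values were -0.0109 and -0.0117, at percentiles 34.1 and 32.1 of the pairs at that distance. At 250 kb the mus values were -0.0492 (percentile 10.3) in WT and -0.0932 (percentile 1.19) in KO, and with the bin to the left of Dxz4 in place of the Dxz4 bin they were 0.0597 and 0.0107. A negative correlation of profiles says that the 2 loci contacted different regions; it does not measure how often they touched each other.

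The X-inactivation centre had positive values with Dxz4, apart from Ftx at 100 kb. Xist, whose RNA spreads over the X to be silenced, its antisense partner Tsix, and Jpx share 1 bin at each size. At 100 kb on mus that bin had 0.0590 in WT (percentile 96.5 of 1116 pairs) and 0.0631 in KO (98.3). The cas values were 0.0327 (percentile 68.1) and 0.0166 (54.7). At 250 kb the Xist bin had 0.0678 (percentile 78.1 of 453 pairs) and 0.0233 (48.5) on mus and 0.133 (70.8) and 0.0946 (67.0) on cas. With the mean of each distance subtracted, the KO value on mus was -0.00168. The neighbouring lncRNA gene Ftx had on mus 0.0747 (WT) and 0.0970 (KO) at 250 kb, but -0.00586 and 0.0127 at 100 kb. The bin size thus set the sign of Ftx in WT and whether the value of the Xist bin was higher on mus or on cas. By percentile the Xist bin in WT was higher on mus at both bin sizes, and in KO at 100 kb only.

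Genes known to escape X inactivation were followed as a list of 15, which includes Firre, Xist, Jpx and Ftx and falls into 6 bins left and 7 bins right of Dxz4. At 250 kb on mus, 2 of the 6 left bins were positive in WT and in KO, and 5 of the 7 right bins in WT and 6 in KO. The medians were -0.0327 and -0.0151 on the left and 0.0678 and 0.0601 on the right. Over all bins of the row, 21.6% of 231 on the left and 55.9% of 356 on the right were positive in WT, and 31.2% and 64.0% in KO. On cas all 6 left and all 7 right bins were positive in WT, with medians of 0.0708 and 0.0930, and 3 and 6 in KO, where 49.8% and 46.1% of all bins were positive in WT and 43.7% and 39.0% in KO. At 100 kb on mus 2 of 6 left and 3 of 7 right bins were positive in WT and 1 and 4 in KO, and the right median was near 0, at -0.00586 and 0.0127. At that size 11.1% and 51.8% of all bins were positive in WT, and 15.3% and 64.8% in KO. The counts on cas at 100 kb were 2 and 5 in WT and 4 and 5 in KO, so that the full count of positive bins in WT was seen at 250 kb and not at 100 kb. Of all bins on cas at 100 kb, 54.7% on the left and 52.1% on the right were positive in WT, and 40.6% and 41.2% in KO.

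Single escape genes differed between the genotypes in places. Eif2s3x, a translation initiation factor subunit gene on the right, had at 100 kb on mus the highest of 1096 values at its distance in WT, 0.102, and 0.0159 in KO. Kdm5c, a histone H3K4 demethylase gene on the right, had -0.0102 in WT and 0.0762 in KO, the latter at percentile 99.4. Utp14a, a nucleolar protein gene on the left, had -0.0808 in WT at percentile 0.224 and -0.0336 in KO. These 3 were chosen after their values were seen.

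Beyond 5 Mb, the row was followed in both genotypes and both bin sizes on mus. Of 547 bins at 250 kb, 303 had the same sign in all 4 maps. The 125 positive bins all lay to the right of Dxz4, and 129 of the 178 negative ones lay to the left, where 211 of the 547 bins are. Among the highest WT values with a kept sign were 0.186 at 81.25 Mb (KO 0.136), with the transcript 4930595M18Rik, and 0.184 at 93.0 Mb (KO 0.1004), with no listed gene. The lowest were -0.140 at 36 Mb (KO -0.0325), with Il13ra1, a subunit of the interleukin 13 receptor, and Zcchc12, -0.131 at 23.5 Mb (KO -0.108), with Wdr44, and -0.122 at 23.25 Mb (KO -0.0638), with Klhl13, a substrate adaptor of a ubiquitin ligase. On cas the 81.25 Mb bin was negative in both genotypes, at -0.0598 and -0.0946. These values were all closer to 0 in KO, but the bins had been chosen by their WT values, so this shared direction is no result.

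The rows most like that of Dxz4 on mus lay on the right. Among 353 gene-holding bins beyond 5 Mb, the bin of Pcyt1b, which codes for an enzyme of phosphatidylcholine synthesis, had r = 0.741 with the Dxz4 row in WT over 558 bins, and 0.634 in KO. The bin of Nr0b1 (the nuclear receptor DAX1) and Samt3 had 0.740 and 0.691, and that of Gm39524 had 0.731 and 0.640. On cas the Pcyt1b row was also like that of Dxz4, with 0.803 in WT and 0.817 in KO, but the Nr0b1 row was its opposite, with -0.747 and -0.775. At 100 kb the 3 most similar rows were other bins, also on the right, at 81.4, 83.8 and 95.1 Mb, with r of 0.651, 0.608 and 0.604 in WT and 0.475, 0.528 and 0.461 in KO. The company of Dxz4 along the chromosome thus differed between the alleles for 2 of the 3 bins named at 250 kb, Nr0b1 and Gm39524, the latter with -0.737 and -0.793.

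The division at the locus was then measured on pairs that leave the Dxz4 bin out. The local split contrast was the mean of same-side pairs minus that of pairs across, both ends within 5 Mb of Dxz4 and 1 to 5 Mb apart. At 250 kb on mus it was 0.132 in WT (same side 0.162, across 0.0296) and 0.0664 in KO (same side 0.148, across 0.0819). On cas it was 0.0582 and 0.0372. At 100 kb it was 0.0324 and 0.0119 on mus and 0.0177 and 0.0136 on cas. The contrast at Dxz4 was therefore positive in every map, on cas as well as on mus, and on each allele it was lower in KO at both bin sizes. In KO at 100 kb it was smaller on mus (0.0119) than on cas (0.0136). The values of that cas map were more spread, with an SD of 0.0394 against 0.0291 on mus. Among all bins taken as the split, Dxz4 ranked 95 of 1414 there on mus and 222 on cas. In the other pairs of maps the contrast was larger on mus.

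The drop at 250 kb on mus came mainly from the pairs across, with means of 0.0296 in WT and 0.0819 in KO, and less from the same-side pairs, with 0.162 and 0.148. Within the left flank the mean went from 0.122 in WT to 0.0973 in KO, and within the right flank from 0.201 to 0.199. The right flank, from Pls3 through Tbl1x, Prkx (a protein kinase gene) and Cfap47, thus kept its internal correlation at 250 kb. At 100 kb it averaged 0.0688 in WT and 0.0612 in KO, with 0.0230 and 0.0141 for the left flank.

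Among all bins taken as the split, Dxz4 was near the top on mus. It ranked 3 of 568 at 250 kb in WT and 7 in KO, and 13 of 1414 at 100 kb in WT and 95 in KO. The best split within 5 Mb lay slightly to the left, at 75.25 Mb in WT (0.138) and 75.0 Mb in KO (0.0973), the bins of F8 and of Dkc1, and these were also the highest on the chromosome at 250 kb. At 100 kb the best splits within 5 Mb were 75.4 Mb in WT and 75.2 Mb in KO (0.0290), and in KO the split at 111.5 Mb was higher, with 0.0317. On cas the best local split was elsewhere, at 77.75 Mb in WT and 76.25 Mb in KO, and Dxz4 ranked 84 and 119. Over the alternatives tried, the mus position stayed between 0.25 and 0.5 Mb left of the start of the Dxz4 bin.

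The pairs across Dxz4 were higher in KO than in WT. Taking all 397 pairs at 250 kb with an end in each flank and 1 to 10 Mb apart, the mean on mus went from -0.0144 in WT to 0.0338 in KO, and 82.9% of pairs were higher in KO, where 40.7% of all pairs of the chromosome at those distances were. The share of negative pairs across went from 65.2% to 30.5%. On cas the mean went from -0.0108 to 0.0197, and 65.2% of pairs were higher in KO against 46.8% of all pairs. At 100 kb 59.8% of 2364 pairs were higher in KO on mus against 44.2% of all, and 56.0% on cas against 48.1%. The direction was the same on both alleles and at both bin sizes, opposite to that of the chromosome as a whole, and smaller at 100 kb. Pairs that share a bin are not independent.

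The difference on mus was present at every distance. In the class of 1 to 2 Mb the mean was 0.0792 in WT and 0.128 in KO over 18 pairs, at 2 to 3 Mb 0.0308 and 0.0959 over 34 pairs, at 5 to 6 Mb -0.0300 and 0.0221 over 76 pairs, and at 9 to 10 Mb -0.0420 and -0.00149 over 15 pairs. The share higher in KO lay between 76.7% and 91.2% over the 9 classes, and that of all chromosome pairs between 37.7% and 44.6%. On cas the classes were uneven. At 3 to 4 Mb the mean fell from 0.00784 to -0.00269 and 40.0% of pairs were higher in KO, whereas at 7 to 8 Mb it rose from -0.00447 to 0.0545 and 84.8% were higher.

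**Figure D4:**
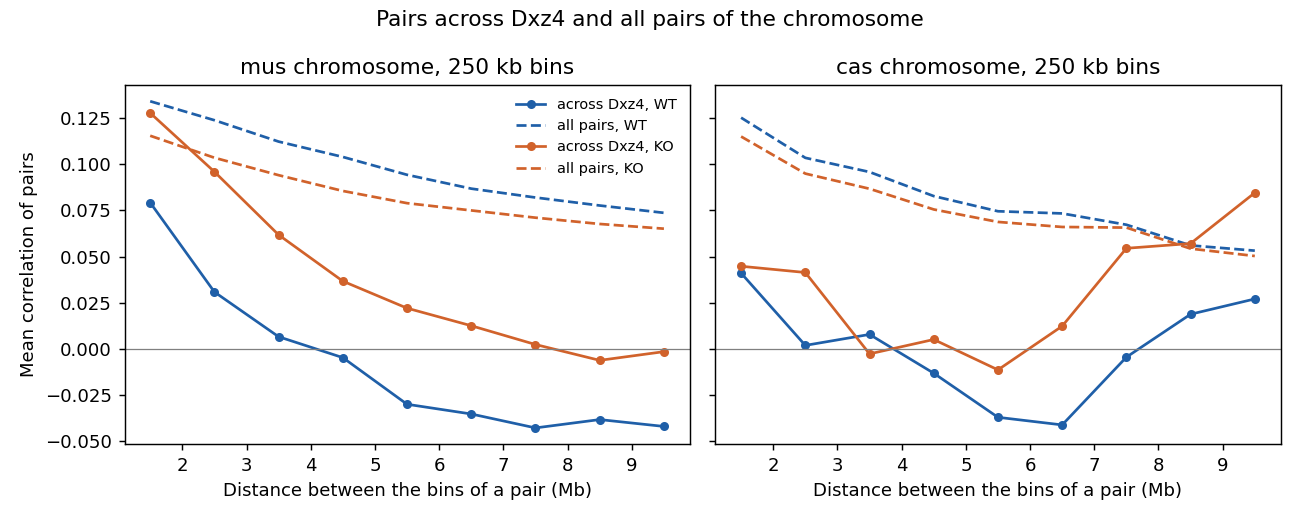
Mean correlation of the 250 kb bin pairs that span Dxz4, by distance between the bins (x axis, Mb, 1 Mb classes) for WT and KO on mus and cas, with the mean of all chromosome pairs of the same class beside them. On mus the KO line lies above the WT line in all 9 classes (0.128 against 0.0792 in the nearest), whereas the mean of all pairs was lower in KO; the cas lines cross at 3 to 4 Mb.

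The same difference was seen from nearly every bin of the flanks. Each bin was given its mean correlation with the opposite flank. On mus at 250 kb all 20 left bins and all 20 right bins were higher in KO, by 0.0126 to 0.0842 on the left and by 0.0188 to 0.0825 on the right, with medians of 0.0507 and 0.0457. On cas 18 of 20 on each side were higher. At 100 kb 39 of 48 left bins and 47 of 50 right bins were higher on mus, and 35 of 48 and 36 of 50 on cas. These bins share their pairs with one another, so the counts are a description of 1 rectangle of the map. By single pairs the shares higher in KO were lower, at 82.9% on mus and 65.2% on cas at 250 kb, and 59.8% and 56.0% at 100 kb. Of all chromosome pairs at those distances, 40.7% on mus and 46.8% on cas were higher in KO at 250 kb, and 44.2% and 48.1% at 100 kb.

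The gene-holding bins at either end of that range all lay in the left flank. The bin of Irak1, a kinase of Toll-like and interleukin 1 receptor signalling, and Flna, an actin crosslinker, went from -0.0172 in WT to 0.0671 in KO on mus. The bin of Gabrq, Cetn2 (a centrin) and Nsdhl (an enzyme of cholesterol synthesis) went from -0.0577 to 0.0242. At the other end, the bin of Mamld1 went from -0.0306 to -0.0179, and that of Vma21, an assembly factor of the vacuolar ATPase, and Prrg3 from -0.0256 to -0.0115. The first pair changed sign and the second pair stayed negative. Next to Dxz4, the F8 bin went from 0.114 to 0.183 and the Dkc1 bin from 0.0866 to 0.132, both positive in WT already, and the Pls3 bin from -0.0601 to -0.0217.

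On cas 4 of the 40 flank bins were lower in KO. The Dkc1 bin went from 0.00921 in WT to -0.0172 in KO and the Pls3 bin from 0.0914 to 0.0688, and these were the largest falls in the left and the right flank. The adjacent F8 bin was higher in KO by little, with -0.0324 in WT and -0.0270 in KO. The largest rise on cas was in the bin of Gabra3, a GABA-A receptor subunit gene, from 0.0369 to 0.142.

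Taking every bin in turn as the split, the Dxz4 bin had the highest share of pairs across that were higher in KO on mus at 250 kb, 82.9% of pairs, out of 458 splits with a median of 40.6%. It also had the highest mean difference, 0.0482 against a median of -0.0138. Away from the locus by more than 10 Mb the highest share was 58.9%, at 104.0 Mb. At 100 kb Dxz4 ranked 3 of 1053 on mus with 59.8%, below 60.0% at 75.6 Mb. On cas it ranked 9 of 458 and 24 of 1053, and the highest split at both bin sizes was at 69.5 Mb, with 70.0% and 58.9%. Splits close to one another share most of their pairs, so the peak at Dxz4 on mus is 1 feature and not several.

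**Figure D5:**
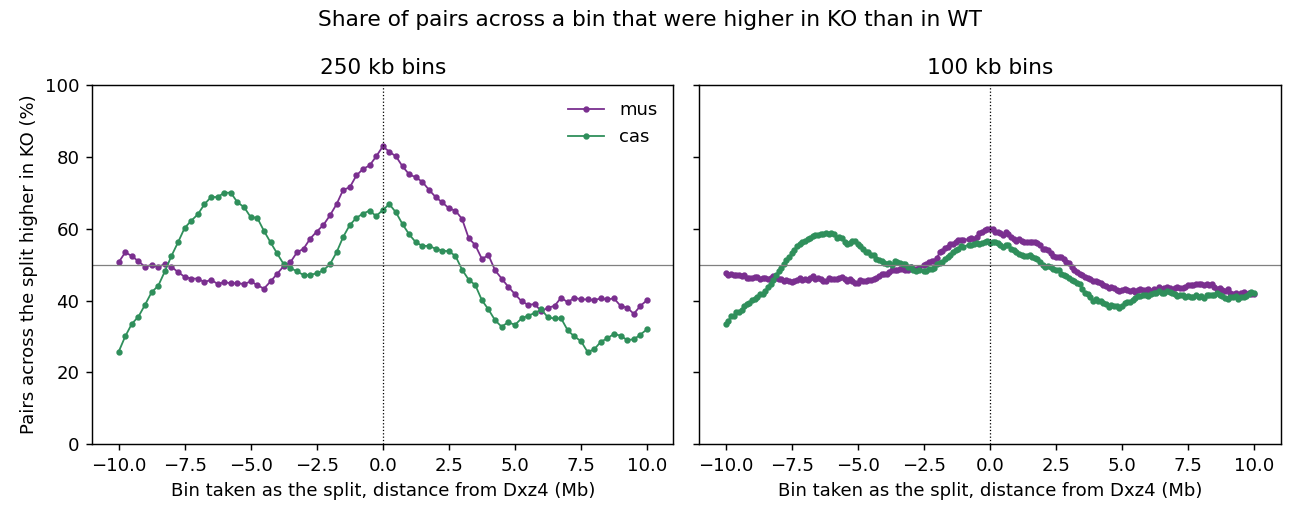
Share of bin pairs across a split that were higher in KO than in WT (y axis, percent of pairs 1 to 10 Mb apart with an end within 5 Mb on each side), for splits within 10 Mb of the Dxz4 bin (x axis, distance in Mb), on mus and cas at 250 kb and 100 kb. The mus curve at 250 kb peaks at the Dxz4 bin with 82.9%, and the cas curve at 250 kb reaches 70.0% at 69.5 Mb, to the left of the locus.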

How the data were processed

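Hi-C had been made from 2 WT and 2 KO samples with 2% formaldehyde and HindIII, per the labels' protocols. The deposited values are a score, a correlation coefficient per pair of bins in HOMER matrix format per the file headers, from which the authors' combination of replicates and split by allele are also known. Juicer, HOMER, Bowtie2, cutadapt and the build mm10 are named, without versions, in the submitters' processing notes. How contacts were normalized, how reads were assigned to alleles and how deep the libraries were is not given in the sources used here. The design text names another assay, Xist CHART-seq, whereas labels and headers describe Hi-C.

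Bins without data in any of the 4 maps of a bin size were left out (588 of 683 kept at 250 kb, 1461 of 1707 at 100 kb). Means, ranks and correlations were computed with Python 3 libraries (numpy, pandas, scipy). The row side and local split contrasts were tested on simulated matrices, and the ranks and row correlations were not. With replicates combined, no test, p-value or error between genotypes was possible. Percentiles are among equally distant pairs. Gene positions are midpoints in the RefSeq annotation GRCm38.p6; the promoter matched for 1 of 1 transcript.

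Named genes are the structural loci, the genes of the Dxz4 bin and the 2 bins on each side, the 3 highest and 3 lowest far bins of the WT mus row with a kept sign, the 3 most similar rows, and the 2 highest and 2 lowest gene-holding flank bins by KO minus WT on mus. The locus, lists and measures were chosen with earlier results of these data known. An item chosen by these rules is not reported here. Any other gene was named after its values were seen. The results were recomputed with the other bin size, other distance and flank limits, scaling, distance correction, neighbouring bins, weak bins, medians and rank correlation.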

Additional observations from a re-analysis of the deposited data

Results flagged for a closer look

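The genotype difference in the row side contrast had opposite signs on the 2 alleles at 250 kb. KO minus WT was -0.0263 on mus and 0.0088 on cas. At 100 kb it was 0.0290 on mus and 0.0124 on cas, which is the same sign on both. The difference between the alleles was not tested, since each value comes from 1 combined map per genotype.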

How the results depend on the processing

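Of 246 values under alternatives, 158 kept their sign and stayed within 1.5 times of the main value (positions, within 0.5 Mb), 74 moved further and 14 changed sign. The row side contrast on mus stayed negative and the local split contrast on mus stayed positive under all 10 alternatives in both genotypes, and pairs across Dxz4 stayed higher in KO on both alleles under all 9. For the 2 contrasts, however, the distance correction cancels at equal distances, and division by the SD keeps the sign and the best split. These alternatives could not reverse a contrast within a map, and the values left unchanged by the distance correction are among the 158. The cause was not tested for any change below. Depth is unknown, smaller bins hold fewer reads, and 1 map per genotype limits every comparison.

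At 100 kb the row side contrast was -0.103 in KO on mus and 0.0193 in WT and 0.0318 in KO on cas, and KO minus WT on mus was 0.0290. The local split contrast was 0.0324 and 0.0119 on mus and 0.0177 and 0.0136 on cas, with KO minus WT of -0.0204 and -0.00410. Pairs across differed by 0.00970 on mus and 0.00549 on cas, and the row similarity on cas was 0.186. With the next bin to the right taken as Dxz4, the row side contrast was -0.324 in WT on mus, KO minus WT was 0.0585 on mus and 0.0170 on cas, the local split was 0.0881 and 0.0276 on mus and 0.0983 and 0.0666 on cas, and its KO minus WT on cas was -0.0316. With the next bin to the left, the row side contrast was -0.00424 in WT on mus, KO minus WT was -0.119 on mus and 0.0385 on cas, the local split on cas was 0.0362 and 0.00604, and the row similarity on mus was 0.426. Firre then had 0.0597 and 0.0107 on mus and -0.0233 and 0.0850 on cas.

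Flanks of 3 Mb gave a local split on cas of -0.00717 in KO, KO minus WT of -0.0490, a best split 0.5 Mb right of Dxz4 in WT, and 0.0379 for the row side contrast, KO minus WT. Flanks of 10 Mb gave, on cas, row side contrasts of 0.0469 and 0.0679 (KO minus WT 0.0210), local splits of 0.133 and 0.0994 (-0.0338), pairs across higher by 0.0200 and a best split at 0.5 Mb in WT. Division by the SD gave -0.288 for the row side contrast in KO on mus, KO minus WT of -0.0720 on mus and 0.0160 on cas, a local split of 0.104 in KO on mus and KO minus WT of -0.0118 on cas, and pairs across higher by 0.0730 on mus. Without the weakest bins (413 kept), KO minus WT of the row side contrast was -0.0170 on mus, the local split on cas was 0.177 and 0.122 (-0.0554), and its best position was 0.5 Mb in WT. Medians gave KO minus WT of the row side contrast of -0.0514 on mus and -0.00521 on cas, a local split of 0.0305 in WT on cas with KO minus WT of 0.00421, and a best position of 2.25 Mb in KO on cas. Pairs from 2 Mb gave KO minus WT of -0.0146 for the row side contrast and a position of 2.25 Mb in KO, both on cas. Subtracting the mean of each distance gave -0.0115 for Firre in WT on cas and -0.00168 for Xist in KO on mus. Firre in WT on cas was -0.0109 at 100 kb and -0.00145 over squares of 3 by 3 bins.

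The row similarity already used bins from 2 Mb, so that alternative was not run for it. No paired analysis was possible because the deposited matrices combine the replicates of each genotype, and replicates could not be left out in turn for the same reason.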
